A study of Mus musculus with 32 samples.

Results

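Cytochrome P450 enzymes are heme proteins that insert 1 oxygen atom into their substrate, and they are named by family number, subfamily letter and gene number. Their transcripts were followed here in mouse brain, heart, kidney and liver, in RNA enriched with an antibody for m6A, the methylated adenosine common in messenger RNA. Members were all genes whose symbol has the form of Cyp, a number, letters and a number, together with Cyp51. This gave 95 of the 27179 genes in the table, and another 9 Cyp symbols (4 pseudogenes and 5 genes with a letter after the gene number) fell outside. Each organ was either flash frozen or fixed in 10% formalin and embedded in paraffin (FFPE), which makes 8 m6A groups. The labels list 2 runs for each, but the table holds 1 column per organ and preservation, so there were no replicates. Strain, age, sex and any pooling of animals are not given in the sources used here. RNA sheared for 20 min was used for all groups, and input RNA was not analysed here. Without it, high transcript abundance and high methylation cannot be told apart.

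Enzymes of families 1 to 3 clear drugs, toxins and steroids, mostly in liver, family 4 hydroxylates fatty acids and eicosanoids, and the remaining families make or degrade sterols, bile acids, steroid hormones, retinoic acid and vitamin D. Most sit in the endoplasmic reticulum and take electrons from the reductase encoded by Por, while the mitochondrial enzymes are fed through ferredoxin. Many of the family 2, 3 and 4 genes lie in clusters of near-identical copies, so how reads were divided among neighbours is uncertain for the 2a, 2b, 2c, 2d, 2j, 3a and 4a genes. Levels are log2 CPM, a count over a scaled library size set by the deposited normalization, not over the library's own count total. That size ran from 0.43 times the total gene counts in FFPE liver to 2.24 times in FFPE brain. Liver libraries therefore read higher, and brain libraries lower, than on total gene counts. Levels were compared between libraries, never between genes, since transcript lengths were not used here.

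Libraries held 9603050 to 21523379 gene counts, of which 50.4 to 79.7% were ribosomal, and the level that 3 counts give ran from log2 -3.29 in frozen brain to log2 -0.86 in FFPE liver. Marker genes were chosen with earlier results known, so they are no independent check of the organ labels. Of these, 10 of 10 hepatocyte, 10 of 10 proximal tubule and 5 of 5 cardiomyocyte markers were called higher in their own organ. So were 6 of 6 neuron and 4 of 4 astrocyte markers. Of 7 pericentral hepatocyte markers, 4 were higher in liver and 3 in brain. Over all genes tested, 20.1% were called higher in liver, 16.1% in kidney, 15.9% in heart and 30.2% in brain. An organ was set against the mean of the other 3 in an additive limma fit (organ and preservation, 3 residual degrees of freedom) over 14864 genes with a log2 level above 0 in at least 2 libraries. A call means a Benjamini-Hochberg adjusted p under 0.05 in that fit. Its p-values measure how alike frozen and FFPE tissue of an organ behaved, not the spread between animals.

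Of the 95 members, 69 were tested. The other 26 reached at most 24 counts in any library, and 24 of them at most 10. The filter was passed only with the help of the liver libraries by 33 of the tested members. For kidney, brain and heart these numbers were 4, 2 and 1, and Cyp4x1 stands under both brain and heart. Counts of calls therefore describe the tested members only. No count was seen for 18, 8, 5 and 6 of the 95 members in frozen brain, heart, kidney and liver, against 63, 64, 32 and 23 in the FFPE libraries. Where a gene had 0 to 3 counts outside its organ, the fitted difference depends on the 0.5 counts that the authors had added, and ratios with exact 95% counting intervals, or lower bounds against 3 counts, are given for some of these genes. These intervals cover counting error only.

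Summed over all members, the level was 8019 CPM in frozen liver and 6888 CPM in FFPE liver. Kidney followed with 1154 and 841.6 CPM, and brain (76.05 and 62.46) and heart (77.32 and 53.72) held far less. Of the 69 tested members, 55 were called higher in liver and 2 lower, where 20.1% and 27.2% of all tested genes were called. In kidney 19 were higher and 11 lower (16.1% and 13.5% of all), in brain 4 higher and 52 lower (30.2% and 26.4%), and in heart 1 higher and 35 lower (15.9% and 18.1%). In bulk organs, fewer cells of a type and less RNA per cell cannot be told apart. The median difference of the members was log2 6.34 in liver, against -0.18 over all tested genes, and -1.28 in kidney, -3.93 in brain and -2.22 in heart. With every count under 3 set to 3 these medians were 5.92, -1.55, -3.29 and -1.77. The split in kidney moved with the scaling, to 19 higher and 29 lower after quantile normalization, and without frozen kidney 12 were higher. The members called in no organ were Cyp2u1, Cyp4f16 and the widely found Cyp20a1, a P450 of unknown substrate.

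**Figure D1:**
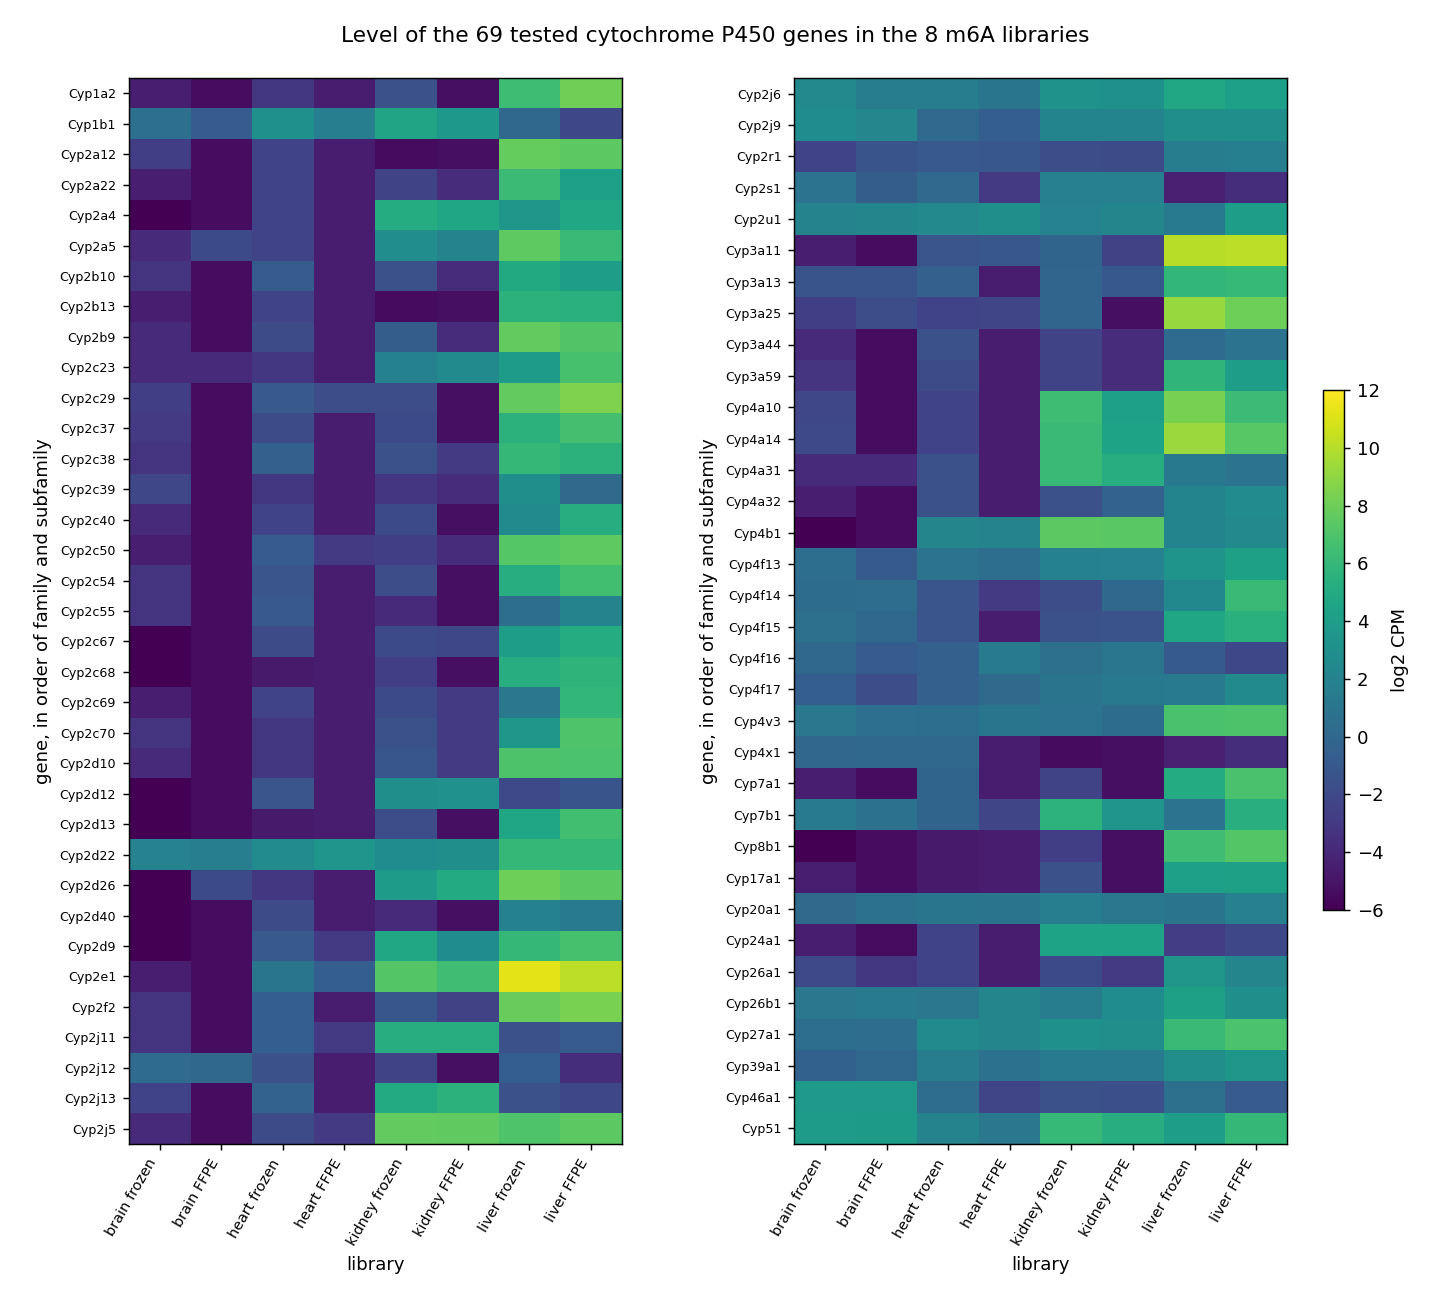
Level (log2 CPM, colour) of the 69 tested cytochrome P450 genes (rows, by family) in the 8 m6A libraries (columns, frozen and FFPE for each organ). The 2 liver columns are the brightest for most rows, and a smaller set of rows is bright in the 2 kidney columns.

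The families differed in where their transcripts were found. Family 3, whose members break down most drugs, summed to 1801 and 1529 CPM in frozen and FFPE liver and to no more than 3.29 CPM in any other library, with 5 of 5 tested members, all of which passed the filter only through liver, called higher there. Family 2, the largest with 49 members, summed to 4734 and 4040 CPM in liver and 550.8 and 479.2 CPM in kidney. Of its 38 tested members, 32 were higher in liver, 11 in kidney and 2 in brain. Most of the 32 passed the filter only through the liver libraries, which largely fixes their calls. The same holds for some of the 11 through kidney and for Cyp2j12 through brain. Over all tested genes, 20.1%, 16.1% and 30.2% were called higher in these organs. Family 4 was closer between the 2 organs, at 1128 and 522.1 CPM in liver and 419.8 and 259.7 CPM in kidney, with 9 of 12 tested members higher in liver and 4 in kidney. Its order in FFPE tissue depended on the scaling, on 3308 counts in FFPE liver and 5065 in FFPE kidney. As a share of all gene counts (14883826 and 18481063) kidney was above liver. As a share of counts outside ribosomal genes (3050241 and 5039792) kidney was below liver. Family 24 was a kidney family (22.05 and 21.28 CPM, at most 0.158 elsewhere) and family 46 a brain family (13.61 and 13.54 CPM, at most 1.49 elsewhere). Families 11, 19 and 21, which act in adrenal gland and gonad, stayed under 1 CPM in every library.

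**Figure D2:**
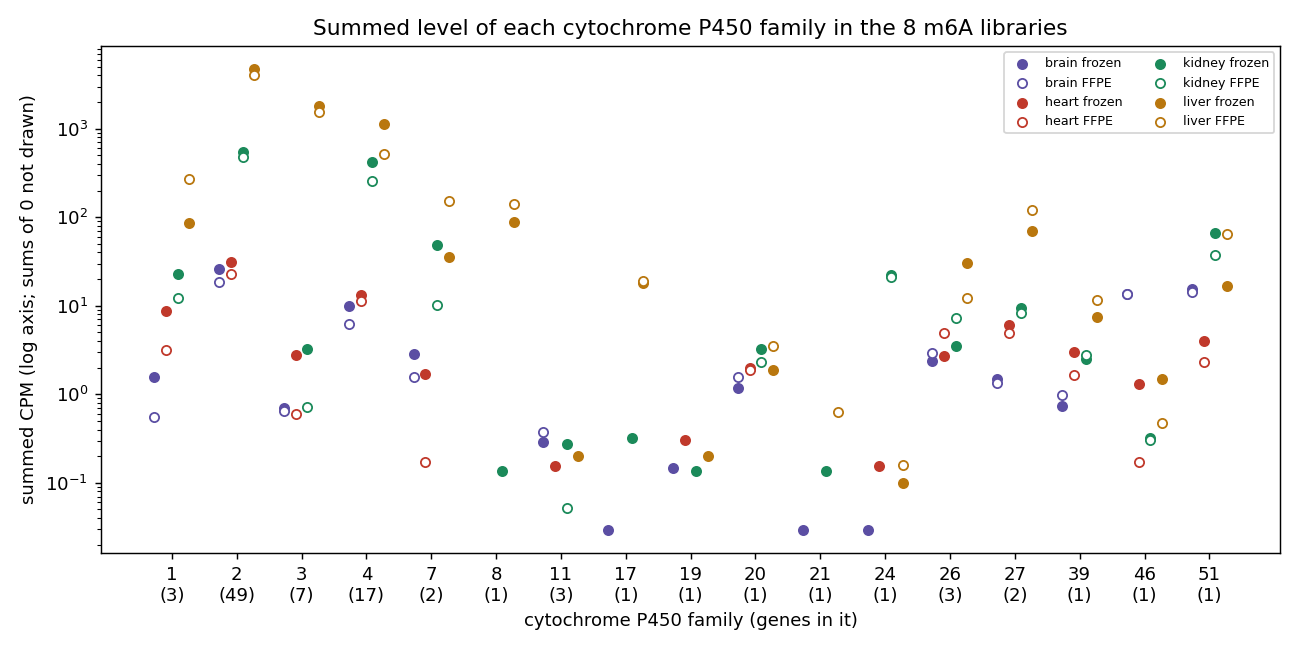
Summed level (CPM, log axis) of each cytochrome P450 family in the 8 libraries, with filled points for frozen and open points for FFPE tissue and the number of genes in brackets. On the deposited scaling, families 2, 3 and 4 are highest in liver, family 24 stands out in kidney (22.05 and 21.28 CPM) and family 46 in brain (13.61 and 13.54 CPM).

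In liver the largest called difference was that of Cyp3a11, a main drug-metabolising enzyme of mouse liver on chromosome 5 (145854607 to 145879854, GRCm38.p6). Its level was log2 10.07 in frozen and 10.21 in FFPE liver. Frozen and FFPE kidney had -0.17 and -2.48, heart -1.24 and -1.08, and brain -4.51 and -5.43. Both liver libraries lay above all others, and the difference from the mean of the other 3 organs was log2 12.62 ± 0.56 (SE; limma adjusted p = 1.39e-06). Frozen liver held 1.24e+03 times the level of frozen kidney, the next organ (795 to 2.06e+03). Its neighbour Cyp3a25 stood at 9.24 and 8.04 in frozen and FFPE liver, while no other library passed -0.10 (difference 11.03 ± 1.02). Cyp3a11 and Cyp3a25 passed the filter only through the liver libraries, which largely fixes their calls.

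The family 2 genes with the largest liver differences were Cyp2a12 (11.88 ± 0.81), Cyp2c29 (11.07 ± 0.85), Cyp2f2 (11.01 ± 0.81), Cyp2c50 (10.73 ± 0.66), Cyp2b9 (10.70 ± 0.68) and Cyp2d10 (10.44 ± 0.65), all with a limma adjusted p of 1.77e-05 or below. All of these passed the filter only through the liver libraries, which largely fixes their calls. Cyp2a12, a steroid hydroxylase on chromosome 7, had 2171 and 1095 counts in frozen and FFPE liver. It had 0 in both kidney libraries, 5 and 0 in brain and 2 and 0 in heart, so FFPE liver lay at least 670-fold above the other FFPE organs. Cyp2f2, known for activating naphthalene in lung airway cells, had 2244 and 2102 counts in liver. It had at most 9 elsewhere. Lung markers summed to 4.98 CPM in frozen liver and 2.05 CPM in FFPE liver and to at most 1.16 CPM in the other libraries. Of these 6 markers, 1 was called higher in liver, and 4 had no counts in FFPE liver. Their part in the Cyp2f2 level was not tested.

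Cyp1a2, which metabolises caffeine and aromatic amines, was at log2 6.41 in frozen and 8.08 in FFPE liver and at no more than -1.55 elsewhere (difference 11.32 ± 1.0, limma adjusted p = 3.69e-05). Frozen liver lay 266 times above frozen kidney (128 to 663). Cyp1a2 passed the filter only through the liver libraries, which largely fixes its call. Its partner gene Cyp1a1, which is switched on by dioxin-like compounds, reached at most 8 counts in any library and was not tested. Cyp2e1, which oxidises ethanol and acetaminophen, was at 11.24 and 10.24 in frozen and FFPE liver. It was also at 7.16 and 6.49 in kidney, and at or below 1.03 in heart and brain, so liver was followed by kidney. In frozen tissue the liver to kidney ratio was 17.0 (16.3 to 17.6) and in FFPE tissue 13.4 (12.7 to 14.1).

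The 2c cluster on chromosome 19 (39006940 to 40187286) holds 14 genes, of which 12 were tested. All 12 passed the filter only through the liver libraries, which largely fixes their calls (12 higher in liver, none in another organ), while Cyp2c65 and Cyp2c66 reached at most 6 counts. Cyp2c23, an epoxygenase of arachidonic acid, lies outside the cluster and was the 2c gene also called in kidney (by 3.0, against 7.15 in liver). Its kidney levels were log2 1.93 and 2.55. The 3a cluster on chromosome 5 had 4 of 4 tested genes higher in liver, which had passed the filter in the same way, and the 4f cluster on chromosome 17 had 4 of 5. The 2a, 2b and neighbouring genes on chromosome 7 (25802469 to 27158564) had 8 of 9 tested genes higher in liver and 3 in kidney, and the 2d genes on chromosome 15 had 6 of 7 and 3. Of these, Cyp2a12, Cyp2a22, Cyp2b9, Cyp2b10, Cyp2b13, Cyp2f2, Cyp2d10, Cyp2d13 and Cyp2d40 passed the filter only through liver, and Cyp2d12 only through kidney. Shares called higher over all tested genes were 20.1% for liver, 16.1% for kidney and 30.2% for brain. On chromosome 4 the organs were split. Of 6 tested 2j genes, 3 were higher in liver, 3 in kidney and 2 in brain, and of 6 tested 4a, 4b and 4x genes 4 were higher in liver, 4 in kidney and 1 in brain. There, Cyp4a32 passed the filter only through liver, Cyp2j11 and Cyp2j13 only through kidney and Cyp2j12 only through brain.

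Promoters were compared because so many members shared an organ. RefSeq promoter sequences (GRCm38.p6) matched 74 of the 95 members, and the 250 bases before the start nearest the gene's 5′ end were searched for 18 motifs on both strands. The motif shown was picked from these after the counts were seen, and the windows of paralogs share sequence, so this is a description. CAAAGTCCA, a form of the site of the hepatocyte nuclear receptor HNF4A, was found in 9 of 74 members (12.2%) and in 102 of 27025 promoters (0.377%). Its shorter form CAAAGTCC, which it contains, was in 17.6% of members and 1.21% of all, and the direct repeat CAAAGGTCA in 4.05% and 0.407%. Among other short motifs, the TATA box TATAAA was in 35.1% of members and 13% of all promoters, the nuclear receptor core site AGGTCA in 23% and 13.8%, and the C/EBP forms TTGCNNAA in 20.3% and 9.55% and TTNCNNAAT in 12.2% and 11%. The FOXA form TGTTTAC was in 9.46% and 3.06%, and the D box TTATGNAA in 8.11% and 3.24%. The GC box GGGCGG was in 23% of members and 33% of all, the dioxin core GCGTG in 21.6% and 28.3%, TNGCGTG, which contains it, in 1.35% and 4.19%, and the E box CACGTG in 2.7% and 6.04%. The paired NFI site was in 1 member (1.35% and 0.252%), and the SREBP form TCACNCCAC was in none (1.03% of all).

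Of the 9 members with CAAAGTCCA, 7 were among the 45 matched members called higher in liver. These 7 are printed with the motif in capitals and 16 bases on each side, 5′ to 3′ on the gene's strand, which is the minus strand for all. They lie, in the order printed, at chr19:39812835-39812875, chr19:39649143-39649183, chr19:39741154-39741194, chr19:39886820-39886860, chr19:40187326-40187366, chr5:145879939-145879979 and chr9:121916348-121916388. The other 2, Cyp2c65 and Cyp3a16, had too few counts to test.

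Cyp2c40: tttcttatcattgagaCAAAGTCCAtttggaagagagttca
Cyp2c67: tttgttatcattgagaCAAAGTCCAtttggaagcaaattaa
Cyp2c68: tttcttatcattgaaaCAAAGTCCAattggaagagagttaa
Cyp2c69: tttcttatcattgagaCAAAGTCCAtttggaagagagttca
Cyp2c70: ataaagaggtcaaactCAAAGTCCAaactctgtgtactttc
Cyp3a11: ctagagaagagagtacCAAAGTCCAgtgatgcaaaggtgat
Cyp8b1: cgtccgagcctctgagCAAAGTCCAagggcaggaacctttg

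The Cyp2c40 and Cyp2c69 windows are identical, and each of the other 5 differs from them outside the motif. The motif ends 36, 116, 68, 66, 55, 100 and 58 bases before the start in the order printed. The 250 bases before 1 liver gene and 1 kidney gene are shown in full, with TATAAA, CAAAGTCCA and GGGCGG or their reverse complements in capitals. The first is Cyp8b1 (chr9:121916306-121916555, minus strand) and the second Cyp4b1 (chr4:115647722-115647971, minus strand), which holds 1 GC box and neither other motif. Cyp8b1 holds the other pair of motifs and no GC box.

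Cyp8b1: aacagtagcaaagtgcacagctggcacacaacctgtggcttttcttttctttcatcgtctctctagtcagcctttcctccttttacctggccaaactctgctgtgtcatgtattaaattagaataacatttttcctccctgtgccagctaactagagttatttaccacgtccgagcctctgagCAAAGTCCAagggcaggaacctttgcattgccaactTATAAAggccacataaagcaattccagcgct
Cyp4b1: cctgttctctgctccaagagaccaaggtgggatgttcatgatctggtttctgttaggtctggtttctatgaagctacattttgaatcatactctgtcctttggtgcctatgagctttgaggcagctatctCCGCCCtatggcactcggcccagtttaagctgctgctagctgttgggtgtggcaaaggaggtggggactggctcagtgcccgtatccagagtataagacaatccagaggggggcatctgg

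A kidney set of P450 transcripts was measured beside the liver set. Cyp24a1, which inactivates vitamin D, was at log2 4.46 in frozen and 4.41 in FFPE kidney. It had 483 and 415 counts there and at most 2 in any other library (difference 8.05 ± 0.81, limma adjusted p = 2.06e-04). Frozen kidney lay 143 times above frozen heart (39.4 to 1.18e+03). Cyp24a1 passed the filter only through the kidney libraries, which largely fixes its call. Cyp4b1, which hydroxylates fatty acids and activates some toxins, was at 7.49 and 7.42 in kidney, at 2.22 and 2.03 in heart and 2.15 and 2.45 in liver, and had no counts in brain (difference 7.90 ± 0.32). The kidney libraries were highest and the heart and liver libraries overlapped, although liver too was above the mean of the other 3 (1.02 ± 0.32, limma adjusted p = 0.03).

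The epoxygenase genes of the 2j cluster gave 3 of the 8 largest kidney differences. Cyp2j13 was at 4.97 and 5.54 in frozen and FFPE kidney and at most -0.31 elsewhere (7.97 ± 0.95), and Cyp2j11 at 5.24 and 5.19 and at most -0.61 elsewhere (7.65 ± 0.75). Cyp2j5 was high in both organs, at 7.69 and 7.60 in kidney and 7.06 and 7.46 in liver. It did not exceed -1.89 in brain and heart. Cyp2j5 was called in kidney by 7.57 ± 0.41 and in liver by 7.05 ± 0.41, and the liver minus kidney difference of -0.38 ± 0.50 did not pass (limma adjusted p = 0.624). Cyp2a4, a steroid hydroxylase, was also called in both (6.59 ± 0.71 in kidney and 5.57 ± 0.71 in liver), with levels of 5.17 and 4.62 in kidney and 3.5 and 4.76 in liver. Cyp4a31 was at 6.20 and 5.23 in kidney against 1.29 and 0.86 in liver (7.63 ± 0.66). Cyp2d12 (6.50 ± 0.98) had 174 and 170 counts in kidney and at most 5 elsewhere. Its neighbour Cyp2d10 was called in liver and Cyp2d26 in both organs. Cyp2j13, Cyp2j11 and Cyp2d12 passed the filter only through the kidney libraries, which largely fixes their calls.

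In all, 11 members were called higher in both liver and kidney and 8 in kidney but not liver. Set directly against each other, 45 of 69 members were higher in liver than kidney (11.5% of all tested genes) and 8 higher in kidney than liver (17%). The furthest toward liver were Cyp2a12 (log2 12.96 ± 1.0), Cyp2c29 (11.62), Cyp3a11 (11.46), Cyp3a25 (11.33), Cyp2b13 (10.87) and Cyp8b1 (10.77). The furthest toward kidney were Cyp2j13 (-7.05 ± 1.16), Cyp24a1 (-6.85), Cyp2j11 (-6.40), Cyp2s1 (-5.84), Cyp4b1 (-5.16) and Cyp1b1 (-5.05). The genes named toward liver passed the filter only through the liver libraries, and Cyp2j13, Cyp24a1 and Cyp2j11 only through the kidney libraries. Cyp2s1 and Cyp1b1, which act on retinoids and on estrogens outside liver, were the 2 members called lower in liver. Cyp2s1 had no counts in either liver library and 77 and 71 in frozen and FFPE kidney. With libraries scaled by total gene counts, 39 were higher in liver and 13 in kidney, where 46.4% of all genes were, and without FFPE kidney 5 were higher in kidney. Scaling by total gene counts moves the median of all tested genes in this comparison from log2 -0.09 to -1.38.

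**Figure D3:**
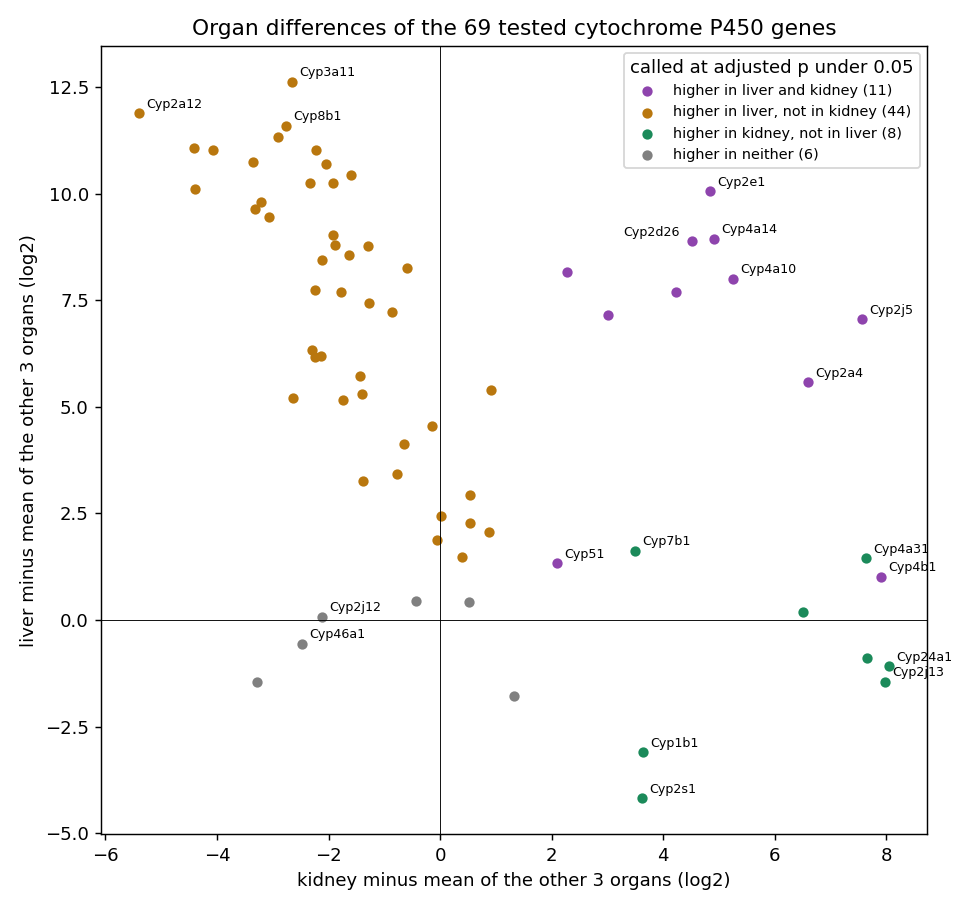
Difference of liver (vertical) and of kidney (horizontal) from the mean of the other 3 organs (log2) for the 69 tested genes, coloured by the organs in which they were called higher. In liver and not kidney 44 genes were called higher, in both 11 and in kidney and not liver 8, with Cyp3a11 at 12.62 in liver and Cyp24a1 at 8.05 in kidney.

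Few members were higher in brain. Cyp46a1, which turns cholesterol into a hydroxylated form so that it can leave the brain, was at log2 3.77 in frozen and 3.76 in FFPE brain. Heart stood at 0.43 and -2.22 (frozen and FFPE), kidney at -1.55 and -1.58 and liver at 0.63 and -0.86, so the brain libraries stood above all others (4.62 ± 0.62, limma adjusted p = 2.99e-04). Frozen brain lay 9.11 times above frozen liver (5.47 to 16.4). Cyp2j12 was at 0.31 and 0.00 in brain, on 42 and 21 counts, and at most -0.63 elsewhere (3.14 ± 0.91). Frozen brain over frozen liver gave a ratio of 2.05 (0.868 to 5.91), an interval that includes 1. FFPE brain lay at least 2.06-fold above the other FFPE organs. Cyp2j12 passed the filter only through the brain libraries, which largely fixes its call. Cyp4x1, an orphan enzyme, had 32 and 22 counts in brain, 13 and 0 in frozen and FFPE heart and 0 in the other 4 libraries (3.86 ± 1.23). As levels these are log2 -0.07 and 0.07 in brain and 0.06 in frozen heart, so frozen heart was not below frozen brain. Cyp4x1 passed the filter through FFPE brain and frozen heart alone. Cyp2j9 was called in brain (0.91 ± 0.30, adjusted p = 0.0274) with levels of 2.74 and 2.31, yet stood at 2.95 and 2.94 in liver and was called there too (1.47 ± 0.30).

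The heart column for Cyp46a1 and Cyp4x1 differed between preservations, with 17 and 13 counts in frozen and 2 and 0 in FFPE heart. The 6 neuron markers summed to 28.75 CPM in frozen heart and 15.82 CPM in FFPE heart, against 1.80 to 4.26 CPM in kidney and liver, and their part in these counts was not tested. Without FFPE brain, Cyp46a1 was the 1 member called in brain, and without frozen brain 2 were, Cyp46a1 and Cyp2j12. With a stricter filter (log2 above 1 in at least 4 libraries), which leaves Cyp46a1, Cyp2j12 and Cyp4x1 untested, Cyp2j9 was the 1 member called. In heart the 1 member called higher was Cyp1b1, with 3.01 and 1.69 in frozen and FFPE heart against 4.49 and 3.60 in kidney (1.37 ± 0.36, adjusted p = 0.0195). Heart was thus above the mean of the other organs but below kidney, and without frozen or FFPE heart, or frozen or FFPE kidney, the count was 0.

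**Figure D4:**
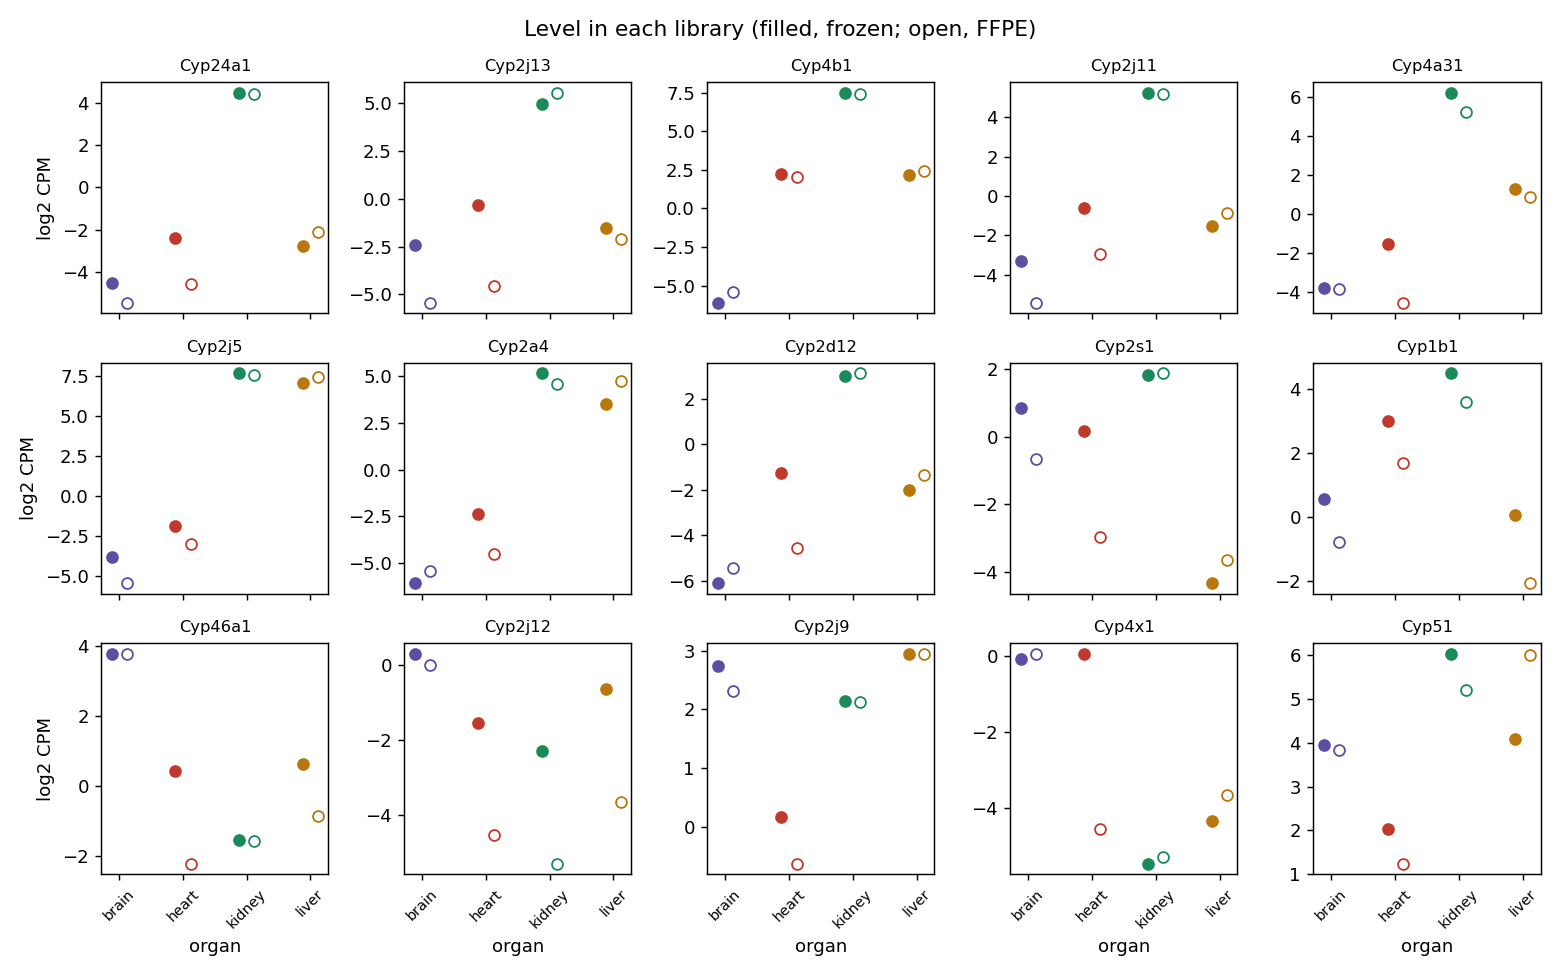
Level (log2 CPM) of 15 genes in each organ, with filled points for frozen and open points for FFPE tissue, 1 library each and a separate vertical scale per gene. The kidney points of Cyp24a1 (4.46 and 4.41) and the brain points of Cyp46a1 (3.77 and 3.76) lie apart from all others.

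Among the 6 genes of bile acid and oxysterol synthesis, 4 were called higher in liver, against 20.1% of all tested genes. Cyp8b1, the sterol hydroxylase that sets the ratio of bile acids, was counted almost entirely in liver, with 879 and 903 counts in frozen and FFPE liver, 3 in frozen kidney and 0 in the other 5 libraries (11.59 ± 0.92). FFPE liver lay at least 553-fold above the other FFPE organs. Cyp7a1, the rate-limiting enzyme of the classic pathway, was at log2 5.07 and 6.81 in liver and at most -0.17 elsewhere (9.64 ± 1.12). Frozen liver lay 39.6 times above frozen heart (21.8 to 80.1). Cyp8b1 and Cyp7a1 passed the filter only through the liver libraries, which largely fixes their calls. Cyp27a1, a mitochondrial sterol hydroxylase, was measured in all libraries, at 6.11 and 6.90 in frozen and FFPE liver and at 3.05 and 2.91 in kidney. Heart had 2.60 and 2.25 and brain 0.50 and 0.41 (4.55 ± 0.25 for liver). Cyp39a1, which hydroxylates oxysterols, was higher in liver by 2.43 ± 0.38.

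Cyp7b1, the oxysterol hydroxylase of the acidic pathway, went another way. It was called higher in kidney (3.49 ± 1.10, adjusted p = 0.0433) and not in liver (1.63 ± 1.10, adjusted p = 0.256). Its level was 5.62 and 3.37 in frozen and FFPE kidney and 0.88 and 5.31 in frozen and FFPE liver, with 1.51 and 0.68 in brain. Liver was therefore below kidney in frozen tissue and above it in FFPE tissue, and the frozen liver value rests on 18 counts against 251.

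Of the 6 genes of steroid hormone synthesis only Cyp17a1 had enough counts to test, and it was higher in liver (8.56 ± 1.0), with 183 and 120 counts there and at most 7 elsewhere. Frozen liver lay 57 times above frozen kidney (27.1 to 144). Cyp17a1 passed the filter only through the liver libraries, which largely fixes its call. The side-chain cleavage gene Cyp11a1 had 9 and 8 counts in frozen and FFPE brain and at most 2 elsewhere. Adrenal cortex markers summed to 13.75 and 10.1 CPM in frozen and FFPE liver and to at most 2.58 CPM elsewhere. Of these 6 markers, 1 was called higher in liver, and 4 had no counts in FFPE liver. Their part in the Cyp17a1 level was not tested. Of 6 vitamin D and retinoic acid genes, the retinoic acid hydroxylases Cyp26a1 (5.72 ± 0.69) and Cyp26b1 (1.87 ± 0.46) and the vitamin D hydroxylase Cyp2r1 (3.25 ± 0.60) were higher in liver and Cyp24a1 in kidney. Among these, Cyp26a1 and Cyp2r1 passed the filter only through the liver libraries and Cyp24a1 only through the kidney libraries. Cyp27b1, which makes the active hormone of vitamin D, had 24 and 17 counts in kidney and was not tested. Cyp51, a sterol demethylase of cholesterol synthesis, was measured in every library, from log2 1.24 in FFPE heart to 6.04 in frozen kidney, and was called higher in kidney (2.10 ± 0.46) and liver (1.33 ± 0.46) and lower in heart (-3.23 ± 0.46).

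The partners of the P450 enzymes were followed with lists chosen with earlier results known. All 8 electron donor genes were called higher in liver, where 20.1% of all tested genes were. Their median difference was log2 2.45. Por was at 7.10 and 6.17 in frozen and FFPE liver, followed by kidney at 5.71 and 5.27. Brain (3.62 and 2.81) and heart (2.69 and 3.17) were lower than both (2.76 ± 0.26 for liver). Cytochrome b5 (Cyb5a, 3.82 ± 0.16) and the heme-binding membrane protein gene Pgrmc1 (4.18 ± 0.14) differed more, and the mitochondrial donor genes Fdx1 (1.73 ± 0.35) and Fdxr (1.29 ± 0.45) less. Of 13 genes of heme synthesis and breakdown, 10 were higher in liver, led by the biliverdin reductase gene Blvrb (3.52 ± 0.48) and by Alas1, the rate-limiting enzyme of heme synthesis outside red cells (3.04 ± 0.26). Kidney had 3 of 8 electron donor genes and 1 of 13 heme genes called higher, against 16.1% of all tested genes.

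Of 20 tested regulators of P450 genes, 16 were called higher in liver, 4 in kidney and 16 lower in brain. The shares of all tested genes were 20.1%, 16.1% and 26.4%. Nr1i3, the constitutive androstane receptor that drives the 2b genes, had 1118 and 383 counts in frozen and FFPE liver and at most 3 elsewhere (10.49 ± 0.73), and Nr1i2, the pregnane X receptor that drives Cyp3a11, differed by 7.88 ± 0.71. Nr1i3 passed the filter only through the liver libraries, which largely fixes its call, and the other regulators were not sorted in this way. Hnf4a was at log2 7.89 and 7.95 in liver and 7.22 and 7.68 in kidney, and at most -0.61 in heart and brain (8.21 in liver, 7.59 in kidney). Nr1h4, the bile acid receptor, was called in both organs as well (6.28 in liver, 4.44 in kidney). Vdr, the vitamin D receptor that switches on Cyp24a1, was called higher in kidney (7.52 ± 0.96), with 1182 and 1170 counts there and at most 24 elsewhere. Of the epoxide hydrolase genes, which take up P450 products, Ephx1 (4.49 ± 0.22) and Ephx2 (3.26 ± 0.16) were higher in liver and Ephx4 in brain (5.66 ± 1.03).

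FFPE and frozen tissue were compared over the 4 organs as blocks. No member was called (0 of 69, and 0.00673% of all tested genes), while 15 members had an unadjusted p under 0.05 in the limma fit, 14 of them lower in FFPE and Cyp2u1 higher. The estimate was below 0 for 54 of the 69 members, and the median was log2 -0.75 against -0.07 over all tested genes. After quantile normalization these medians were -0.11 and 0.01. Within organs, members with at least 50 counts over both libraries had medians of 0.30 in liver, -0.07 in kidney, -0.34 in heart and -0.31 in brain. All genes with as many counts had 0.10, 0.07, 0.14 and -0.07. With precision weights from voom 13 members were called, and 2.81% of all tested genes. The smallest adjusted p was that of Cyp4a10 and Cyp4a14, fatty acid omega-hydroxylases that respond to the receptor PPAR alpha (limma adjusted p = 0.0572 for both, estimates -2.41 ± 0.32 and -2.33 ± 0.33). Cyp4a14 was at 9.31 in frozen and 7.31 in FFPE liver and at 6.15 and 4.42 in kidney. Cyp4a10 was at 8.33 and 6.35 in liver and 6.41 and 4.15 in kidney, so FFPE was lower in both organs for both genes. In brain and heart both had 2 to 8 counts in frozen and 0 in FFPE libraries. Their regulator Ppara was at 7.91 and 6.89 in frozen and FFPE liver and 5.33 and 5.38 in kidney. Cyp2e1 followed (-1.06 ± 0.20, adjusted p = 0.0723).

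Within an organ, each preservation is 1 library, so differences below have an exact 95% counting interval and no test. Members with at least 50 counts over both libraries were used. In liver 29 of 55 lay above 0 and 16 below, against 28.8% and 18.7% of all genes. In kidney 4 of 31 lay above and 12 below (26.2% and 17%), in heart 3 and 3 of 9 (30.2% and 15.5%) and in brain 0 and 6 of 18 (22.2% and 30.7%). Scaled by total gene counts, 16 lay above and 28 below in liver, 2 and 23 in kidney, 3 and 1 in heart and 5 and 2 in brain. The signs held under 5 scalings for 16 members above and 16 below in liver, 2 and 12 in kidney, 2 and 1 in heart, and 0 and 2 in brain.

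Furthest above frozen in FFPE liver was Cyp2c69, at log2 1.23 in frozen and 5.94 in FFPE liver (23 and 388 counts), a difference of 4.71. Cyp7b1 (4.43, interval 3.78 to 5.24), the leukotriene hydroxylase Cyp4f14 (3.79) and the bile acid hydroxylase Cyp2c70 (3.53) came next. Furthest below were Cyp2c39 (-2.72, on 78 and 7 counts), Cyp2a22 (-2.05), Cyp4a14 (-2.0) and Cyp4a10 (-1.98), and these 8 signs held under 5 scalings. The 5 genes of bile acid synthesis with enough counts in liver all lay above as deposited, and Cyp7a1 (1.73) and Cyp7b1 did so under all 5 scalings. Genes of 1 cluster lay on both sides, with Cyp2c69 and Cyp2c70 above and Cyp2c39 below. Cyp3a11 differed by 0.13 (0.09 to 0.17) and its neighbour Cyp3a25 by -1.20 (-1.28 to -1.12), of which the first did not hold under all 5 scalings. Other genes of liver differed between its libraries as well, and their part in these values was not tested. Periportal markers summed to 2766 and 3811 CPM in frozen and FFPE liver, pericentral markers to 708.4 and 843.4, and Apoa4, a lipoprotein gene, had 9727 and 166 counts.

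In kidney the furthest below were Cyp4a10 (-2.26), Cyp7b1 (-2.25), Cyp2d9 (-2.02) and Cyp4a14 (-1.72), and the furthest above were Cyp26b1 (1.17), Cyp2d26 (1.05), Cyp2c23 (0.62) and Cyp2j13 (0.57), of which Cyp2c23 and Cyp2j13 did not hold under all 5 scalings. In heart Cyp26b1 (1.09), Cyp2d22 (0.69) and Cyp2u1 (0.53) lay above and Cyp1b1 (-1.32), Cyp39a1 (-0.86) and Cyp51 (-0.78) below, and Cyp2u1, Cyp39a1 and Cyp51 did not hold. In brain Cyp2s1 (-1.52), Cyp4f13 (-1.43), Cyp1b1 (-1.34) and Cyp2j6 (-0.85) lay below, and Cyp1b1 and Cyp2j6 did not hold.

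**Figure D5:**
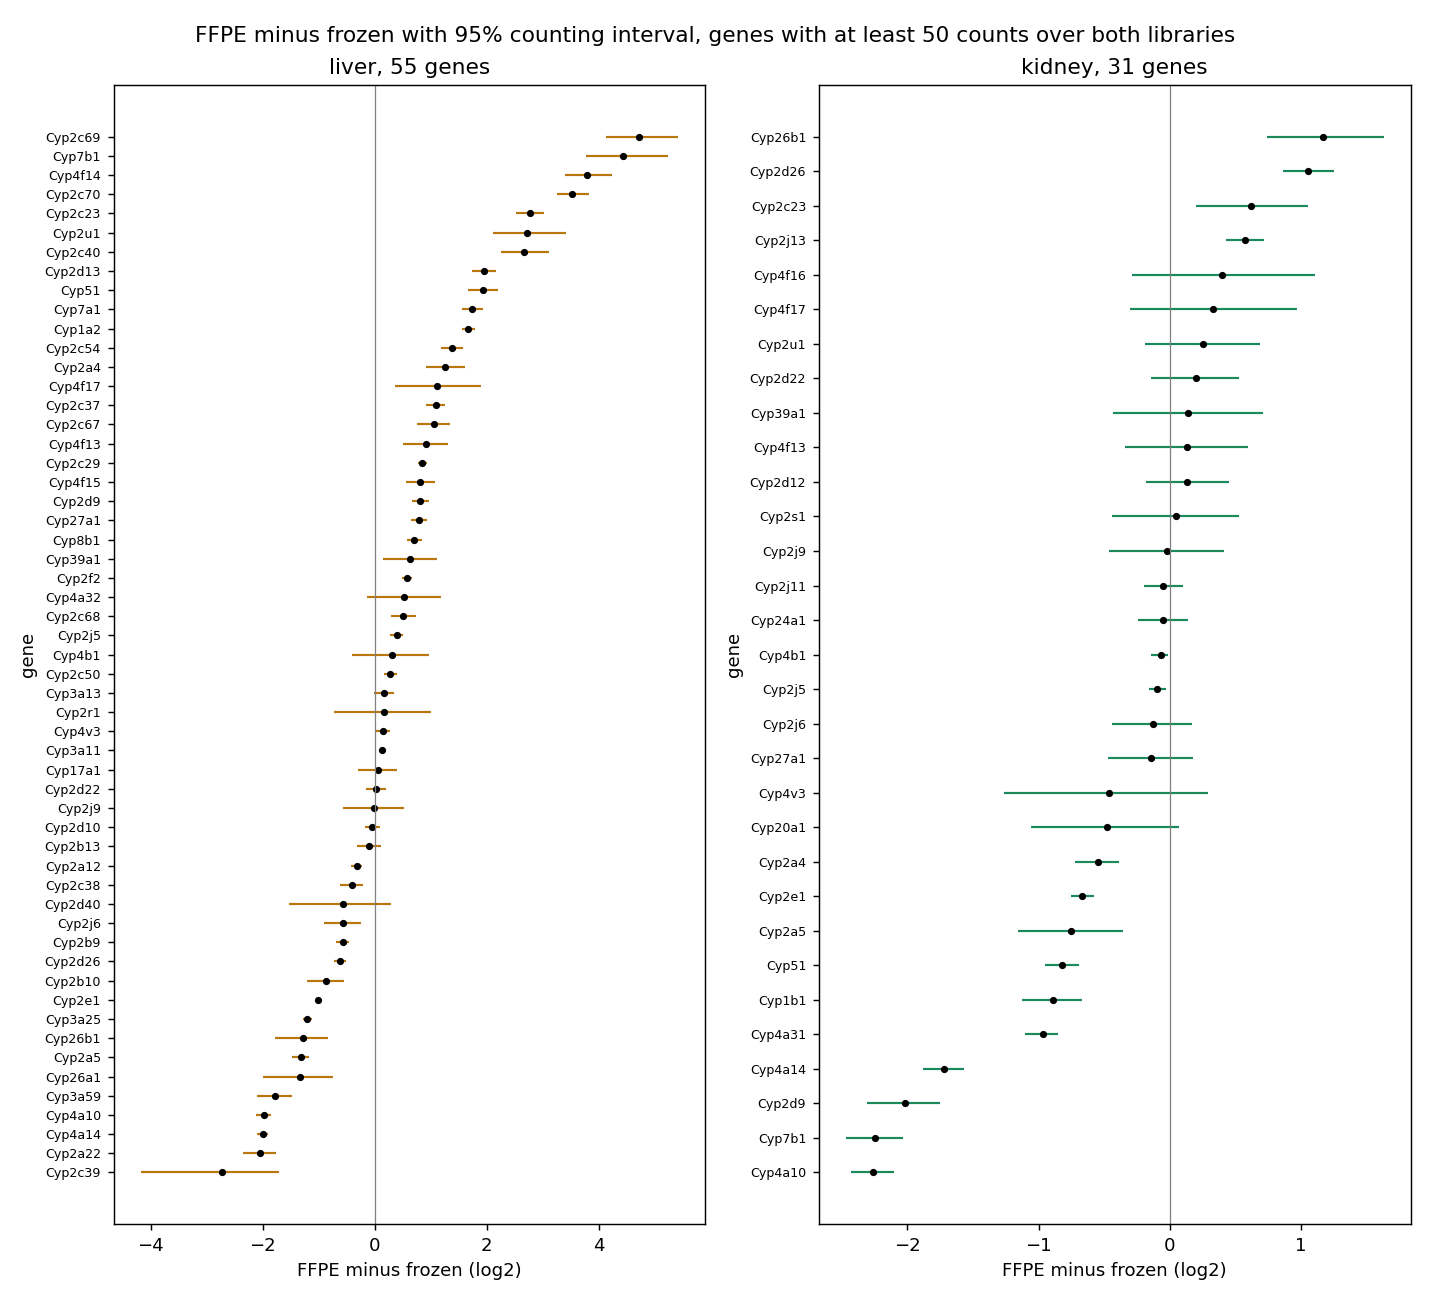
FFPE minus frozen (log2, points) with 95% counting intervals (lines) for genes with at least 50 counts over both libraries, 55 in liver and 31 in kidney, with a separate horizontal scale in each panel. The liver values run from -2.72 (Cyp2c39) to 4.71 (Cyp2c69) and the kidney values from -2.26 (Cyp4a10) to 1.17 (Cyp26b1).

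Several P450 genes of mouse liver and kidney differ between males and females, and the libraries differed in genes that mark sex. Xist, the RNA of the inactive X chromosome, reached 2693 to 6685 counts in each FFPE library and 5 to 26 in each frozen one. It was the 1 gene of 14864 called between FFPE and frozen tissue (9.15 ± 0.41, limma adjusted p = 1.01e-04). The Y-linked gene Ddx3y had 43 to 700 counts in all 8, which are not scaled for library size. A list of 5 sex chromosome genes, Xist among them, had at least 50 counts over both libraries of every organ. FFPE heart and FFPE kidney each had 4 of the 5 with counting intervals below 0 and 1 above. For FFPE brain these numbers were 3 and 1, and for FFPE liver 2 and 1. Preservation and the sex of the tissue donors cannot be told apart here. Of 12 genes known to be female-predominant in mouse liver, 8 had at least 50 counts in liver, of which 4 lay above 0 in FFPE (Cyp2a4, Cyp2c40, Cyp2c69 and Cyp39a1 with 1.26, 2.66, 4.71 and 0.63) and 2 below (Cyp2b9 -0.57 and Cyp26a1 -1.33). Among these, Cyp39a1 did not hold under all 5 scalings. Cyp2b13 was at 5.55 and 5.45, and Cyp17a1 at 4.19 and 4.25. Of 7 genes known to be male-predominant in mouse liver or kidney, 6 had at least 50 counts in liver. Of these, 4 lay above 0, among them Cyp7b1 (4.43) and Cyp2d9 (0.81), and 1 below (Cyp2e1, -1.01). Cyp2e1 and Cyp4b1 were listed as male-predominant in kidney, not liver. The Cyp2d9 sign in liver did not hold under all 5 scalings. In kidney all 7 genes of this list had enough counts, of which 1 lay above 0 (Cyp2j13, 0.57) and 4 below, including Cyp7b1 and Cyp2d9. Over all genes with as many counts, 28.8% lay above 0 and 18.7% below in liver, and 26.2% and 17% in kidney. Cyp4a12a, a male gene that the symbol rule leaves out, was at 4.43 and 4.98 in frozen and FFPE liver.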

How the data were processed

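MeRIP-Seq libraries of 4 mouse organs, frozen or FFPE, were analysed. Per the submitters' processing notes, HISAT2, featureCounts and limma were used with mm10, with no versions or settings. The authors deposited log2 normalized counts. From the values, each is log2 CPM with 0.5 counts added and a scaled library size per column, and 100% of values gave whole counts (tolerance 0.001, relative to 10000 counts for larger ones). The table's name is the source for m6A. Another table's 8 columns fit no label and were left out.

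Genes with a log2 level above 0 in at least 2 of 8 libraries (14864) were fitted in limma (organ and preservation, eBayes with trend, 3 residual degrees of freedom). Members and lists were chosen with earlier results of these data known. Genes named were those called furthest from the other organs with a level of at least 0 in both libraries of the organ (10 in liver, 8 in kidney, up to 6 in brain and heart), the 6 furthest each way between liver and kidney, up to 4 each way between FFPE and frozen tissue within an organ, and list members. Others, such as Cyp2e1, Cyp4x1 and Cyp2c23, were chosen after their values were seen. Rules on level per length and protein identity could not be run, since neither lengths nor proteins were used here. Genomic spans and promoters are from RefSeq (GRCm38.p6), which held a position for 95 members. Clusters join members under 1000000 bases apart. Of the regulators and the motifs searched, some are not reported here. The fit was tested on simulated data.

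Alternatives were 4 other scalings, 2 filters, 2 counts added, voom and quality weights, no trend and leaving out each library. Tools were limma 3.58.1 (R 4.3.3) and, under Python 3.11.15, scipy 1.17.1, numpy 2.4.6, pandas 2.3.3 and matplotlib 3.10.9.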

Additional observations from a re-analysis of the deposited data

Results flagged for a closer look

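For 9 members with at least 50 counts in each organ concerned, FFPE tissue lay above frozen tissue in 1 organ and below it in another, with counting intervals that leave out 0. Whether the organs differ was not tested, since each value rests on 1 library per preservation. All values are log2 FFPE minus frozen.

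In 5 of these members the signs held in those organs under 5 scalings, apart from the values named as not holding. Cyp7b1 was at 4.43 in liver, -2.25 in kidney and -0.83 in brain (the last did not hold). Cyp51 was at 1.93 in liver, -0.82 in kidney and -0.78 in heart (the last did not hold). Cyp2a4 was at 1.26 in liver and -0.55 in kidney. Cyp26b1 ran the other way, with 1.17 in kidney, 1.09 in heart and -1.28 in liver, as did Cyp2d26, with 1.05 in kidney and -0.62 in liver.

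In the other 4 at least 1 sign changed or its interval reached 0 under another scaling. Cyp2d9 was at 0.81 in liver and -2.02 in kidney, Cyp2j5 at 0.39 in liver and -0.10 in kidney, Cyp4f13 at 0.91 in liver and -1.43 in brain, and Cyp39a1 at 0.63 in liver and -0.86 in heart.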

How the results depend on the processing

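The number of members higher in liver was 49 to 58 under every alternative but the stricter filter (log2 above 1 in at least 4 libraries), and 49 to 56 with 1 library left out. The stricter filter tests 23 members, and 19, 12, 1, 11 and 2 were then higher in liver, kidney, brain, liver than kidney and kidney than liver. With 1 library left out, kidney gave 12 to 19 (lowest without frozen kidney), brain 1 to 4, heart 0 to 2, liver over kidney 34 to 48 and kidney over liver 5 to 10. Scaled by total gene counts, 0 members were higher in heart, 13 in kidney than liver and 2 differed between FFPE and frozen (1.41% of all genes). Within organs 2 then lay above and 23 below 0 in FFPE kidney, 16 and 28 in liver, 3 and 1 in heart and 5 and 2 in brain. FFPE against frozen also gave 2 calls with counts outside the ribosomal genes (0.289% of all), 3 with no filter (0.878%), 2 with 2 counts added (0.706%), 13 with voom weights (2.81%), 2 with library quality weights (1.17%) and 0 with each library left out. The cause was not tested. Of the alternative values of 34 named results none reversed, 573 kept the call and 12 lost it, for Cyp2j9 and Cyp2j12 in brain, Cyp1b1 in heart and Cyp2s1 between liver and kidney. With 1 library left out, an organ's lone library is assumed to vary like the others. No paired analysis was possible because the columns carry no run number. Depth limits members under 3 counts, most of all in FFPE liver.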
